A study of Mus musculus with 8 samples.

Results

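The genes described are 31 members of cholesterol synthesis and its control in mouse: the enzymes that lead from acetyl-CoA to cholesterol, the proteins that sense and regulate sterols, and the carriers that store or move cholesterol. They were chosen by name, with earlier results of these arrays known, and a gene was counted as measured when a probe annotated to it (older symbols included) had a value on all 8 arrays. This held for 26 of the 31 genes, through 33 probes, out of 9987 annotated genes and 13853 probes with values in the whole data set. Fdft1 (squalene synthase) and Srebf1 have a probe that is blank on all 8 arrays, and Acat2, Hmgcs1 and Hsd17b7 have no probe named in the annotation used here. Where a gene has 2 measured probes (Lss, Cyp51, Nsdhl, Insig1, Stard4, Abcg1 and Npc1), the brighter one stands for it.

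The arrays measured RNA of abdominal skin from female C57BL/6JNarl mice aged 6-8 weeks. The skin received 100 μL of acetone carrying shikonin, a naphthoquinone from the roots of Lithospermum erythrorhizon, at 10 μg/μL for 4 h or 24 h, or the same volume of acetone alone for 4 h or 24 h. There were 2 one-colour arrays in each of the 4 groups, and no allele, cell line or transgene entered the design. Every array had already been brought to a common distribution, with medians of 1129 to 1130 intensity units. Nothing in the labels says that both arrays of a group came from different animals, and the p-values therefore cover the array-to-array spread alone, possibly a technical one. The floor was 203.4 units, the level of the dimmest 5% of values, and lower intensities were raised to it ahead of the log2 step. A fold against a group with both arrays at that floor is a lower bound, written as "at least". Whole skin was hybridised, so fewer cells of a type and less RNA per cell cannot be told apart in any of the values below.

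Cholesterol is made from acetyl-CoA through mevalonate and the isoprenoid unit isopentenyl diphosphate. Isopentenyl diphosphate isomerase turns that unit into its reactive isomer, farnesyl diphosphate is assembled from both, and squalene made from farnesyl diphosphate is closed to lanosterol and trimmed to cholesterol. SREBP transcription factors, escorted by Scap and held back by the Insig proteins when sterols are plentiful, drive most of these enzymes, while liver X receptors answer to oxysterols and drive cholesterol export. In skin the pathway feeds the barrier lipids of the epidermis and the sebum of the sebaceous glands.

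The isomerase step has a pair of genes in the mouse, Idi1 and Idi2, which lie on chromosome 13 with 4 annotated genes between them, 0 of them protein coding. The values of these 2 genes are contrasted below, so the 250 bases before the start of each are printed, from the RefSeq table for GRCm38.p6, together with those of Lss and Sc4mol, the members whose fold change at 24 h was the lowest. The windows are chr13:8952613-8952862 on the + strand for Idi2, chr13:8885356-8885605 on the + strand for Idi1, chr10:76531355-76531604 on the + strand for Lss and chr8:64733579-64733828 on the - strand for Sc4mol. Capitals mark CCAAT, the motif of the factor NF-Y, which reads ATTGG on the other strand.
Idi2: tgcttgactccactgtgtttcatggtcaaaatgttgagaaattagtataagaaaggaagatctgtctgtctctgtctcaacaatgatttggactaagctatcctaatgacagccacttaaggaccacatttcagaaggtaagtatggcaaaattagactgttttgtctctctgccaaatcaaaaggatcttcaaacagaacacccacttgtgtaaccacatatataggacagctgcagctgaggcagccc
Idi1: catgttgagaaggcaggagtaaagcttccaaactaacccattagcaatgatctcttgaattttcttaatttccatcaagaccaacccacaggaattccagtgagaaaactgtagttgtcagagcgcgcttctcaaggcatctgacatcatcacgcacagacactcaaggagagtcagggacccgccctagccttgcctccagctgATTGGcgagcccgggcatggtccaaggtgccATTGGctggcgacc
Lss: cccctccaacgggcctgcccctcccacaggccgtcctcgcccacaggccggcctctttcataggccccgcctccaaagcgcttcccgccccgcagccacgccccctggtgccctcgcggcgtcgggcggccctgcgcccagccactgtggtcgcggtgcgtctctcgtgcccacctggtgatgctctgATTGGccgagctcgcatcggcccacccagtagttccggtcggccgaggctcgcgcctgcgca
Sc4mol: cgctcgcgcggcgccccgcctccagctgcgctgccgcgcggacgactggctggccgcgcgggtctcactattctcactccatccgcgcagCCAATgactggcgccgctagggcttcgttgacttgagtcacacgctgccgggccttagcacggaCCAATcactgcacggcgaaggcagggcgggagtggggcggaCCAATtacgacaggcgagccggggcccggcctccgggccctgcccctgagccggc

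The window of Idi2 held no CCAAT, that of Idi1 held 2, that of Lss 1 and that of Sc4mol 3. RefSeq windows of 300 bases (250 before and 50 after the start) were at hand for 21 of the 26 measured members, the others being Fdps, Sqle, Stard4, Abcg1 and Npc1. Some members, such as Dhcr7, have several windows, and a gene was counted once if any of its windows held the motif. CCAAT occurred on either strand for 17 of the 21 members (81.0%), against 41.1% of all 27025 genes. The E-box CACGTG, a palindrome, occurred in 5 (23.8%: Abca1, Dhcr7, Insig1, Sc5d and Scap), against 8.09% of all genes. The spelling TCACNCCAC of the sterol regulatory element, searched on both strands, occurred in 0 of 21, against 1.44% of all genes. None of these motifs overlapped another in the members' windows, and the Idi2 window held none of the 3. A match is a description of letters, and factor binding was not measured here.

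Idi2 and Idi1 encode enzymes of the same step and followed different courses. Idi2 (probe mMC015466) was at 34922 and 42947 intensity units on the shikonin arrays at 4 h, against 307 and 302 on the acetone arrays. At 24 h it was at 198 and 151 in shikonin-treated skin, both below the floor, against 596 and 623 in acetone-treated skin. The gene was thus bright only on the 2 shikonin arrays at 4 h, and in no pair of groups at one time did the arrays overlap. The 4 h values correspond to a 127-fold higher level in shikonin-treated skin (log2 fold change 6.99), which is given without a test because Idi2 was chosen with this change known; it was the highest fitted change at 4 h among the 13853 probes. At 24 h Idi2 was at least 3.0-fold lower in shikonin-treated skin (log2 fold change -1.58, SE 0.14, adjusted p = 1.23e-05, limma with Benjamini-Hochberg adjustment over all probes). Between the acetone groups it was 2.0-fold higher at 24 h than at 4 h, also given without a test because the acetone arrays of 4 h entered the choice of Idi2.

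Idi1 (probe mMC024455), the isomerase gene used in most tissues, was bright in every group. It was at 28612 and 21921 units on the shikonin arrays at 4 h, against 26065 and 27335 on the acetone arrays. The groups overlapped at 4 h (log2 fold change -0.09, SE 0.13, adjusted p = 0.586, limma). At 24 h Idi1 was at 11390 and 10520 units in shikonin-treated skin, against 30068 and 33641 in acetone-treated skin. Both shikonin arrays lay below both acetone arrays, and the level fell 2.91-fold (log2 fold change -1.54, SE 0.13, adjusted p = 5.74e-06, limma). In acetone-treated skin Idi1 did not differ past the threshold between 24 h and 4 h (log2 fold change 0.25, adjusted p = 0.159, limma). On the log2 scale the change of Idi2 exceeded that of Idi1 by 7.08 at 4 h and by -0.04 at 24 h, and these differences between the genes are descriptions, with Idi2 at the floor at 24 h.

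**Figure D1:**
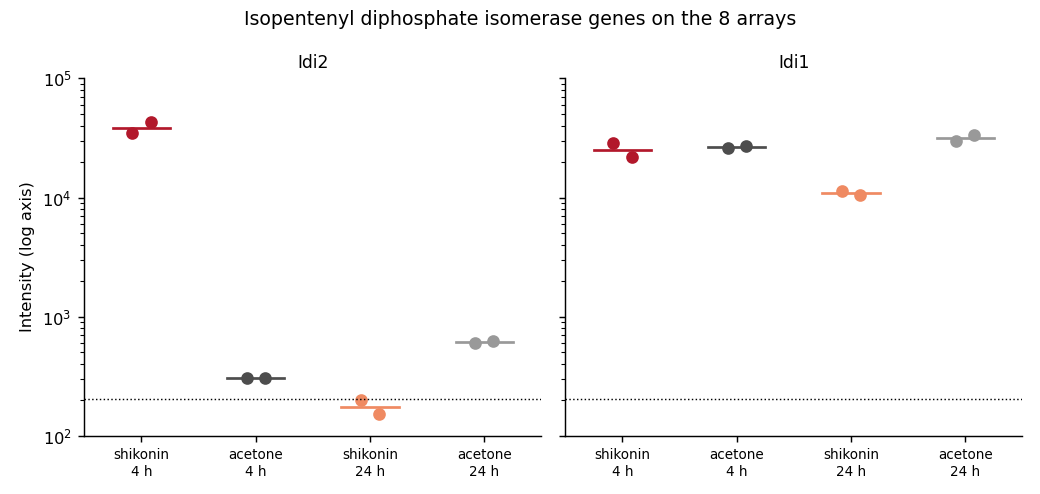
Intensity of Idi2 and Idi1 on each array (points, log axis, intensity units) in shikonin- and acetone-treated skin at 4 h and 24 h, 2 arrays a group, with lines at the geometric means. Idi2 lies at 34922 and 42947 units on the shikonin arrays at 4 h and at 623 units or less on every other array, while Idi1 lies at 21921 units or more in all groups except shikonin at 24 h (11390 and 10520 units).

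Among genes outside the set whose log2 range over the 8 arrays was 2 units or more (1673 probes), the profiles most like that of Idi2 were those of Fbp1 (Pearson r = 0.999), Cish (0.994), Cyp2s1 (0.994), Stbd1 (0.993) and Prr9 (0.992). Fbp1 encodes a fructose bisphosphatase, Cish a suppressor of cytokine signalling and Stbd1 a glycogen-binding protein. Their log2 fold changes ran between 1.75 and 4.81 at 4 h and between -1.05 and -0.23 at 24 h. The profiles most like that of Idi1 were Gstz1 (r = 0.993), Myo6 (0.991), Elovl4 (0.988), Acpp (0.987) and Serpina3b (0.986), with log2 fold changes between -0.98 and -0.17 at 4 h and between -5.88 and -2.10 at 24 h. Elovl4 lengthens the very long fatty acids of epidermal ceramides. These correlations are over 8 arrays that share their groups, and for Idi2 they rest on the 2 shikonin arrays at 4 h.

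Hair follicle markers stood beside Idi2 in one respect. The summed intensity of the 9 measured of 11 hair follicle markers, mostly hair keratins, was 205297 to 219947 on the shikonin arrays at 4 h, against 7075 to 7113 on the acetone arrays. All 9 rose at 4 h (median log2 fold change 5.10), beside 21.2% of all probes. The list was drawn up with earlier results of these arrays known. S100a3, Krt26 and Krt71 on it were also among the 10 profiles most like that of Idi2. At 24 h the sum of the 9 markers was 3282 to 4269 in shikonin-treated skin, against 6806 to 8180 in acetone-treated skin. Of the 9, 1 was higher and 6 lower, beside 29% higher and 32.3% lower of all probes. Krt33a and Krt86 were at the floor in acetone at 4 h, Krt86 in acetone at 24 h, and Krt71, Krt27, Krt33a and Krt73 in shikonin at 24 h. The part of hair follicle RNA in the Idi2 result was not tested. In shikonin-treated skin at 4 h the sums of sebaceous gland markers overlapped those of acetone-treated skin (63970 to 67937, against 66030 to 67873). Of these 8 markers 2 were lower, beside 25.4% of all probes.

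Of the 25 members other than Idi2, 3 rose, 7 fell and 15 did not pass the test (limma, adjusted p under 0.05) at 4 h. Over all 13853 probes 21.2% rose and 25.4% fell, so the shares of members called (12% and 28%) were not far from those of all probes. The median log2 fold change of the 25 was -0.09, against -0.06 over all probes. The 2 shikonin arrays lay above both acetone arrays for 8 members and below both for 11 (33.3% and 40.5% of all probes), and 6 overlapped.

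Synthesis enzymes moved little and in both directions at 4 h. Mevalonate kinase (Mvk), an early enzyme of the pathway, was at 826 and 929 units in shikonin-treated skin, against 469 and 494 in acetone-treated skin (log2 fold change 0.86, SE 0.16, adjusted p = 0.00208, limma). Tm7sf2, a sterol reductase, was at 468 and 619 units, against 295 and 335 in acetone-treated skin (0.78, SE 0.17, adjusted p = 0.00453, limma). In both genes the groups were apart, but both lay near the dim end, and with the floor at the 25th percentile the Tm7sf2 call ended (log2 fold change 0.24). Against the acetone arrays of 24 h neither rise was seen, with log2 fold changes of -0.0018 for Mvk (adjusted p = 0.999, limma) and -0.10 for Tm7sf2 (adjusted p = 0.633, limma). Nsdhl, which removes carbon from the sterol ring, fell by 0.50 on the log2 scale on its brighter probe (adjusted p = 0.0194, limma), while its dimmer probe rose by 1.30 (adjusted p = 0.000366, limma), so the direction for this gene is not settled. The log2 fold changes of the other 12 enzymes lay between -0.41 (Sc5d) and 0.55 (Pmvk), with 0 calls. Lss and Cyp51 were also split between probes at 4 h. The brighter probes were at 0.13 and 0.07 and did not pass, the dimmer Lss probe fell by 0.56 (adjusted p = 0.0105, limma), and the dimmer Cyp51 probe rose by 0.83 (adjusted p = 0.0104, limma).

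Among the sterol regulators and carriers, 2 of 5 regulators and 4 of 5 carriers fell at 4 h and 1 carrier rose, beside the 25.4% lower and 21.2% higher of all probes. Abcg1, a cholesterol exporter and a known target of liver X receptors, was at 1677 and 2086 units in shikonin-treated skin, against 5583 and 4720 in acetone-treated skin. This is a 2.74-fold lower level (log2 fold change -1.46, SE 0.14, adjusted p = 4.17e-05, limma). Against the acetone arrays of 24 h the fall of Abcg1 was smaller (log2 fold change -0.41, adjusted p = 0.0324, limma). Its dimmer probe was at least 2.30-fold lower. Abca1, the exporter that loads cholesterol onto apolipoprotein, was at 303 and 397 units in shikonin-treated skin, against 997 and 857 in acetone-treated skin, 2.66-fold lower (log2 fold change -1.41, SE 0.25, adjusted p = 0.00146, limma). For both exporters the shikonin arrays lay well below the acetone arrays, and they were the 2 members that fell at least 2-fold in both numbered pairs of arrays (5.05% of all probes did), while 0 rose so far (7.38% of all probes). Insig2, which holds the SREBP escort Scap in the endoplasmic reticulum, was at 10406 and 11456 units in shikonin-treated skin, against 17502 and 18580 in acetone-treated skin (1.65-fold lower, SE 0.09 log2, adjusted p = 0.000219, limma).

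Stard4, a cytosolic sterol carrier, fell by 0.62 on the log2 scale (adjusted p = 0.00152, limma), and its dimmer probe fell too. Soat1, which esterifies cholesterol for storage, was at 2950 and 3455 units in shikonin-treated skin, against 2018 and 2126 in acetone-treated skin (log2 fold change 0.62, adjusted p = 0.0086, limma), but against the acetone arrays of 24 h it was at 0.16 (adjusted p = 0.403, limma). Scap fell by 0.34 and Npc1, which releases cholesterol from lysosomes, fell by 0.39 (adjusted p = 0.0144 and 0.0436, limma). Of the 10 calls at 4 h, 6 were kept whichever array was left out (Mvk, Tm7sf2, Insig2, Stard4, Abca1 and Abcg1), and those of Nsdhl, Scap, Soat1 and Npc1 were not, all 4 of them ending without acetone 4 h replicate 1 (log2 fold changes -0.43, -0.36, 0.59 and -0.43). The number of members that fell was 4 without acetone 4 h replicate 1 and also 4 without acetone 4 h replicate 2. Insig1, the other Insig gene, had a log2 fold change of 0.52 (adjusted p = 0.0802, limma) on its brighter probe, while its dimmer probe was at least 3.97-fold higher (adjusted p = 1.17e-05, limma).

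At 24 h most of the measured synthesis enzymes of the set were lower in shikonin-treated skin. Of the 25 members, 4 rose, 13 fell and 8 did not pass, against 29% higher and 32.3% lower over all probes. Their median log2 fold change was -0.56, against -0.02 over all probes. Among the 15 synthesis enzymes 10 fell, 1 rose and 4 did not pass. At least a 2-fold fall in both numbered pairs of arrays was seen for 9 members (12.3% of all probes), and a rise for 1 (12.5% of all probes). The shikonin arrays lay below both acetone arrays for 16 members and above both for 7 (41.6% and 38.3% of all probes), and 2 overlapped.

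The sterol-forming enzymes held the lowest values. Lanosterol synthase (Lss), which closes squalene oxide into the first sterol, was at 702 and 650 units in shikonin-treated skin, against 3526 and 3270 in acetone-treated skin. The groups were far apart, and the level fell 5.03-fold (log2 fold change -2.33, SE 0.12, adjusted p = 3.54e-07, limma), with a log2 fold change of -2.80 on the dimmer probe. Sc4mol (now Msmo1), a sterol methyl oxidase, was at 4306 and 4356 units in shikonin-treated skin, against 15689 and 19728 in acetone-treated skin (4.06-fold lower, SE 0.12 log2, adjusted p = 6.82e-07, limma). Cyp51, the lanosterol demethylase, was at 6827 and 8149 units, against 29085 and 26065 in acetone-treated skin (3.69-fold lower, SE 0.11 log2, adjusted p = 5.58e-07, limma). Its dimmer probe fell less, by 0.76 on the log2 scale (adjusted p = 0.0113, limma). In each of these 3 enzymes the 2 shikonin arrays lay close together and below both acetone arrays.

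Dhcr7, the reductase of a last step to cholesterol, fell 2.76-fold, and squalene epoxidase (Sqle), often limiting for the flow into sterols, fell by 1.19 on the log2 scale (adjusted p = 1.51e-05 and 0.00104, limma). Tm7sf2 fell by 0.99 (adjusted p = 0.000725, limma), a call lost with the floor at the 25th percentile (log2 fold change -0.34). The other 3 sterol enzymes, Nsdhl, Ebp and Sc5d, had log2 fold changes of -0.04, 0.14 and -0.33 and did not pass. These 3 act in the same stretch of the pathway as Sc4mol and Dhcr7.

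Upstream of squalene, farnesyl diphosphate synthase (Fdps) was at 8433 and 7141 units in shikonin-treated skin, against 21379 and 20143 in acetone-treated skin, 2.67-fold lower (adjusted p = 3.51e-06, limma). Mevalonate diphosphate decarboxylase (Mvd) fell by 1.09 and Mvk by 0.56 on the log2 scale (adjusted p = 0.000356 and 0.0136, limma). Mvd was dim, at 231 and 239 units against 556 and 450 in acetone-treated skin, and its call ended with the floor at the 25th percentile (log2 fold change -0.14). The Mvk call ended without acetone 24 h replicate 1 (log2 fold change -0.54, adjusted p = 0.0538, limma) and without shikonin 24 h replicate 2 (-0.39, adjusted p = 0.104). Pmvk, at 197 and 170 units in shikonin-treated skin and 203 and 251 in acetone-treated skin, lay at or near the floor on all 4 arrays.

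Geranylgeranyl diphosphate synthase (Ggps1), which draws farnesyl diphosphate away from sterols towards protein prenylation, ran the other way. It was at 501 and 551 units in shikonin-treated skin at 24 h, against 143 and 182 in acetone-treated skin, both below the floor. Ggps1 was therefore at least 2.59-fold higher (log2 fold change 1.37, adjusted p = 5.73e-05, limma), the only one of the 25 that rose at least 2-fold in both numbered pairs. At 4 h it was at 434 and 384 units in shikonin-treated skin, against 377 and 303 in acetone-treated skin (log2 fold change 0.27, adjusted p = 0.186, limma). Its acetone level was itself lower at 24 h than at 4 h (at least 1.66-fold, adjusted p = 0.00951, limma). Ggps1 was dim in every group. With the floor at the 25th percentile, its effect at 24 h minus that at 4 h was 0.21 on the log2 scale and did not pass.

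**Figure D2:**
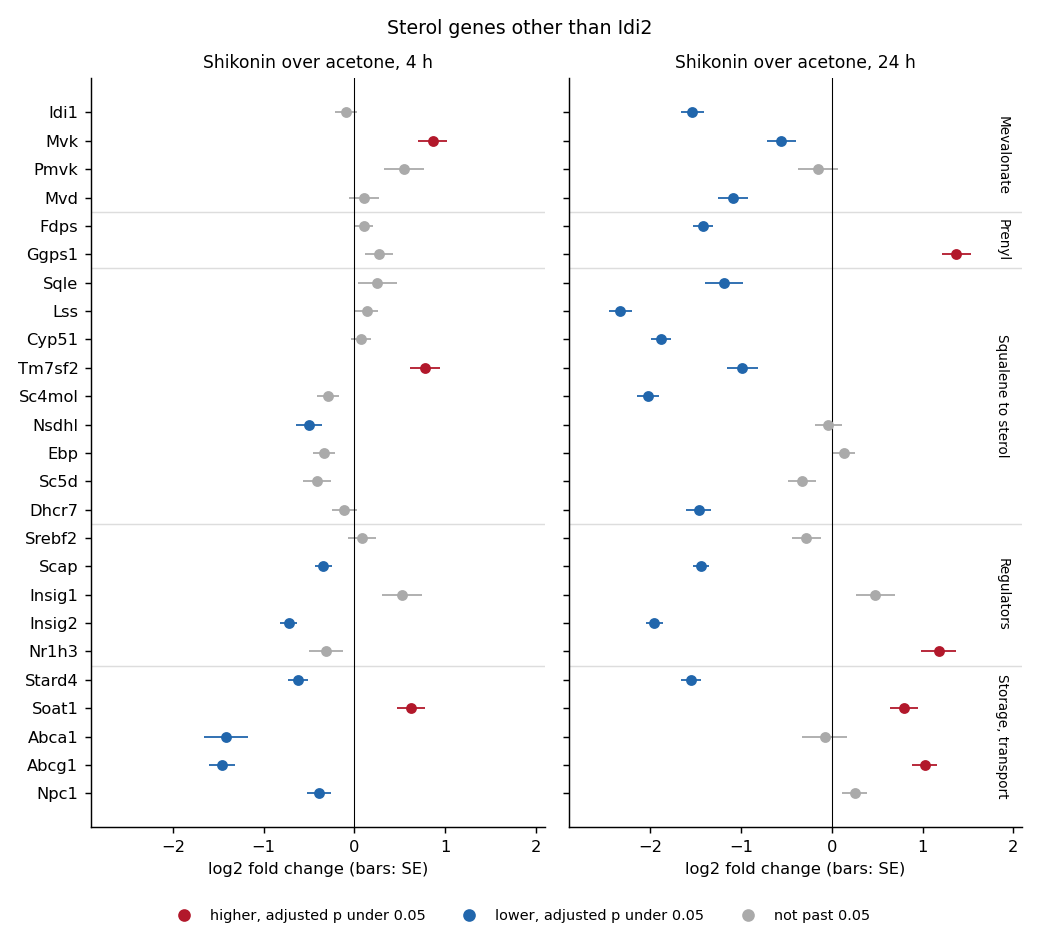
Log2 fold change, shikonin over acetone, of the 25 measured genes other than Idi2 at 4 h (left) and 24 h (right), grouped by role, with bars for the SE of the fit (2 arrays a group) and red, blue and grey for higher, lower and not past the threshold. The genes lie between -1.46 and 0.86 at 4 h, and between -2.33 (Lss) and 1.37 (Ggps1, a lower bound) at 24 h.

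The SREBP machinery was uneven at 24 h. Insig2 was at 6412 and 6378 units in shikonin-treated skin, against 23914 and 25738 in acetone-treated skin, 3.88-fold lower (SE 0.09 log2, adjusted p = 1.56e-07, limma). Scap was at 10452 units on both shikonin arrays, against 29877 and 27012 in acetone-treated skin, 2.72-fold lower (adjusted p = 1.14e-06, limma). Srebf2, the SREBP gene of cholesterol synthesis, was at 2747 and 2644 units in shikonin-treated skin, against 3547 and 3022 in acetone-treated skin (log2 fold change -0.28, adjusted p = 0.146, limma), and Insig1 was at 0.48 (adjusted p = 0.0858, limma), so neither passed.

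On the side of sterol sensing and export, several members were higher at 24 h. Nr1h3, the liver X receptor alpha, was at 1371 and 1124 units in shikonin-treated skin, against 473 and 639 in acetone-treated skin, 2.26-fold higher (log2 fold change 1.18, SE 0.19, adjusted p = 0.000563, limma). Abcg1 was at 5128 and 4980 units in shikonin-treated skin, against 2431 and 2551 in acetone-treated skin, 2.03-fold higher (adjusted p = 0.000187, limma). That rise rests on the acetone level at 24 h, since against the acetone arrays of 4 h the log2 fold change was -0.02, and the dimmer probe, with arrays near the floor, was at -0.16. Soat1 was at 5048 and 4844 units in shikonin-treated skin, against 2484 and 3286 in acetone-treated skin (log2 fold change 0.79, adjusted p = 0.00157, limma). Stard4 fell 2.94-fold on its brighter probe (adjusted p = 2.08e-06, limma) and fell on the dimmer one too. Abca1, at 517 and 789 units in shikonin-treated skin and 573 and 792 in acetone-treated skin, overlapped between the groups (log2 fold change -0.08, adjusted p = 0.807, limma). Npc1 was at 0.25 on its brighter probe and did not pass, while its dimmer probe rose by 1.64 (adjusted p = 0.00105, limma).

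Whichever array was left out, 17 of the 18 calls at 24 h (Idi2 included) were kept, the exception being Mvk. With the acetone arrays of 4 h in place of those of 24 h, 14 of the 25 members fell and 4 rose. No share over all probes is at hand for that comparison, so these counts cannot be set beside one. Lss was at -1.82, Sc4mol at -1.56, Insig2 at -1.50, Cyp51 at -1.46 and Idi1 at -1.29, all lower. Mvk (0.31) and Tm7sf2 (-0.11) did not pass in that comparison.

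**Figure D3:**
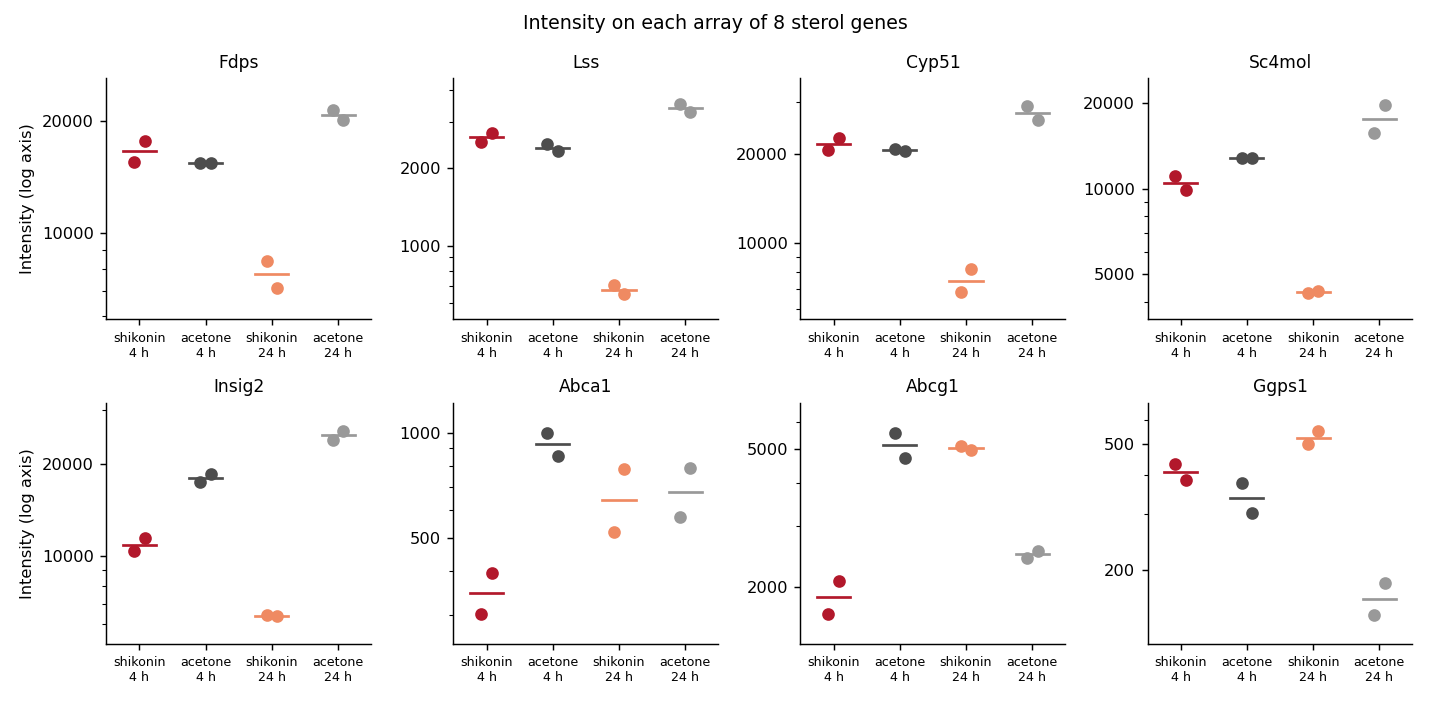
Intensity on each array (points, log axis, intensity units) of 8 members, in shikonin- and acetone-treated skin at 4 h and 24 h, 2 arrays a group, with lines at the geometric means and values below the floor drawn as measured. The shikonin arrays at 24 h are the lowest for Lss (702 and 650 units), Sc4mol and Insig2, and for Abcg1 the shikonin arrays are the lowest of all at 4 h (1677 and 2086 units).

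The shikonin effect at 24 h was set against that at 4 h for each gene, using all 8 arrays. Of the 25 members, 13 had a lower and 5 a higher effect at 24 h (limma, adjusted p under 0.05), against 22.2% lower and 21.1% higher over all probes. The median difference was -0.93 on the log2 scale, against -0.02 over all probes. On the dimmer probes the Stard4 difference did not pass (-0.39, adjusted p = 0.316, limma). Those of Nsdhl (-1.41) and Insig1 (-1.75) passed, unlike their brighter probes (0.46 and -0.04). Lss differed by -2.46 (SE 0.18, adjusted p = 8.97e-06), Cyp51 by -1.96 (adjusted p = 1.56e-05) and Tm7sf2 by -1.76 (adjusted p = 0.000397, all limma). In the other direction Abcg1 differed by 2.48 (adjusted p = 1.76e-05), Nr1h3 by 1.49 (adjusted p = 0.0022) and Abca1 by 1.34 (adjusted p = 0.0134, all limma). With the floor at the 25th percentile the calls of Tm7sf2 (-0.58), Mvd (-0.14), Ggps1 (0.21), Abca1 (0.94) and Npc1 (0.64) ended. Nr1h3 was at 445 and 522 units in shikonin-treated skin at 4 h, against 567 and 630 in acetone-treated skin. Of the 18 calls, 16 were kept whichever array was left out, and those of Abca1 (1.23) and Npc1 (0.68) ended without acetone 4 h replicate 1, among others. The number with a higher effect at 24 h was 3 without acetone 4 h replicate 1 and 3 without acetone 24 h replicate 1. Idi2 differed by -8.57, given without a test because its 4 h value chose it.

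In acetone-treated skin alone, 10 of the 25 members were higher and 4 lower at 24 h than at 4 h (limma, adjusted p under 0.05), against 15.5% higher and 14.2% lower over all probes. The median was 0.21, against 0.06 over all probes. Mvk (log2 fold change 0.87) and Tm7sf2 (0.88) were the highest, Nsdhl (-1.23) and Abcg1 (-1.04) the lowest. The dimmer Nsdhl probe rose in this comparison by 0.69 (adjusted p = 0.0203, limma), and the mean of both probes was at -0.27 (adjusted p = 0.209, limma), so its direction is not settled here either. Most of these changes were small, and by the 2-fold rule 0 were higher and 1 lower (0.823% and 2.9% of all probes). The calls of Mvk, Abcg1 and the brighter Nsdhl probe were kept whichever array was left out. The number higher was 2 without acetone 4 h replicate 1, 3 without acetone 4 h replicate 2 and 6 without acetone 24 h replicate 1, and the number lower was 2 without acetone 4 h replicate 1 or without acetone 24 h replicate 1.

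**Figure D4:**
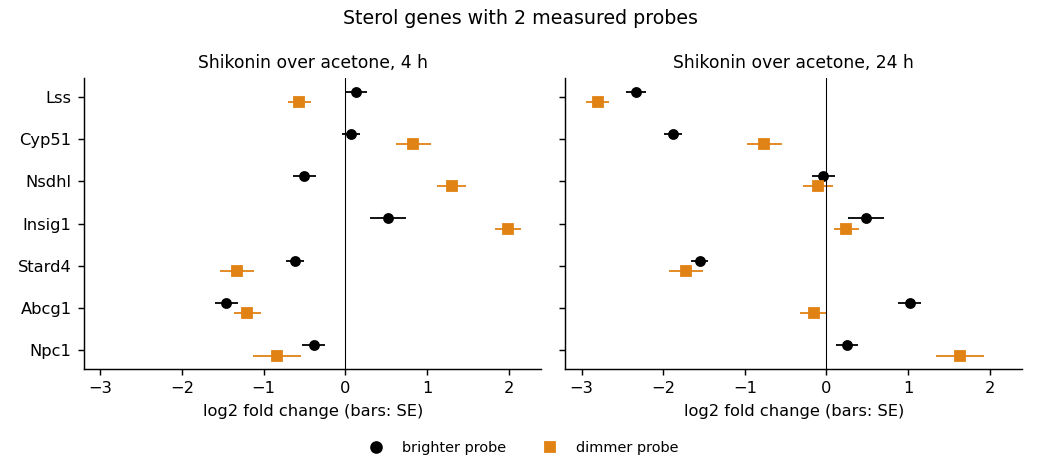
Log2 fold change, shikonin over acetone, on the brighter and the dimmer probe of the 7 genes with 2 measured probes, at 4 h and 24 h, with bars for the SE of the fit. At 4 h Nsdhl reads -0.50 on its brighter and 1.30 on its dimmer probe, whereas at 24 h both probes of Lss, Cyp51 and Stard4 lie below 0.

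Related genes, again from lists drawn up with earlier results of these arrays known, were counted in the same fit. Among 26 measured of 40 other sterol genes, there were 6 higher and 7 lower at 4 h, against 9 higher and 12 lower at 24 h. The share of all probes that rose was 21.2% at the earlier time, then 29%. The share that fell was 25.4%, then 32.3%. The sterol gene counts of 4 h were thus not far from those of all probes. Ch25h, which makes an oxysterol that both holds SREBP back and engages liver X receptors, was at 15548 and 15287 units in shikonin-treated skin at 4 h, against 1163 and 1213 in acetone-treated skin. At 24 h Ch25h was at 20355 and 19045 units in shikonin-treated skin, against 310 and 443 in acetone-treated skin, so the groups were far apart at both times (log2 fold changes 3.70 and 5.73). Cyp7b1, which breaks down oxysterols, rose by 1.26 at 4 h and by 3.09 at 24 h. Soat2 rose by 1.30 at 4 h and by 1.85 at 24 h. Lbr, a sterol reductase like Tm7sf2, rose by 1.05 at 4 h and by 1.63 at 24 h, whereas Tm7sf2 fell at 24 h. Cyp27a1, a sterol hydroxylase, fell by 1.60 at 4 h and by 2.91 at 24 h. Mylip, which marks the LDL receptor for degradation, fell by 1.47 at 4 h and did not pass at 24 h. The sterol carrier Stard5 fell by 0.98 at 4 h and by 2.74 at 24 h.

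Of 16 measured of 17 genes of the prenyl and dolichol branch, 2 were higher and 2 lower at 4 h, 2 higher and 5 lower at 24 h. The shares over all probes, for this and the next list, were 21.2% higher and 25.4% lower at 4 h. At 24 h they were 29% and 32.3%, and no count of this branch stood above them. Nus1, a subunit of the dolichol chain enzyme, rose by 0.66 at 4 h and by 1.51 at 24 h. Rabggta (0.41) also rose at 4 h, Zmpste24 (0.43) at 24 h. Fnta, the shared subunit of the prenyl transferases, fell by 1.25 at 4 h, Pcyox1 by 0.75 at 4 h and 1.47 at 24 h, and Pggt1b by 0.84 at 24 h. Fatty acid synthesis genes, which SREBP factors also drive, fell more widely. Of 11 measured of 17, 5 fell and 0 rose at 4 h (median log2 fold change -0.34), while 10 fell and 0 rose at 24 h (median -2.20). Fads1 (0.11) was the one that did not pass at 24 h, and Thrsp (-5.87) and Elovl6 (-4.77) were the lowest. At 4 h the lowest were Thrsp (-1.01) and Elovl5 (-0.52).

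Most markers of sebaceous glands and of the interfollicular epidermis were lower in shikonin-treated skin at 24 h, beside 32.3% of all probes. The summed intensity of 8 measured of 12 sebaceous gland markers was 19778 to 20086 in shikonin-treated skin at 24 h, against 89206 to 96113 in acetone-treated skin, with 6 lower and 0 higher (median log2 fold change -1.82) and Scd3 and Awat2 at the floor. One of them, Fasn, is also among the fatty acid genes. Probes above 65000 units on any array were taken as saturated and left out of the sums that follow, a choice made after the values were seen, and their fold changes in the counts and medians can be understated. Without Krt14, Krt10 and Lor, 7 of the 10 interfollicular epidermis markers summed to 3900 to 4263 in shikonin-treated skin, against 96460 to 110490 in acetone-treated skin, and of all 10 markers 9 were lower (median -4.50), with Krt1, Flg, Krt78 and Dsg1a at the floor in shikonin-treated skin. At 4 h the same 7 markers summed to 23386 to 24380 in shikonin-treated skin, against 87735 to 94554 in acetone-treated skin. Again 9 of all 10 were lower (median -2.26), beside 25.4% of all probes. In acetone-treated skin 0 of these 10 markers was at the floor at either time, as the label of skin requires.

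Of 9 measured of 10 adipocyte markers, 2 rose and 3 fell at 4 h, and 8 fell at 24 h (summed 56296 to 58614 in shikonin-treated skin without the saturated Cfd, against 149362 to 181128 in acetone-treated skin). Of 10 measured of 11 skeletal muscle markers 10 fell at 4 h and 7 at 24 h. Of 7 fibroblast markers 5 fell at 4 h, and 3 fell and 1 rose at 24 h. Beside these counts and those below, 21.2% of all probes rose and 25.4% fell at 4 h. At 24 h 29% rose and 32.3% fell. Neutrophil markers (9 measured of 12), without the saturated S100a8 and Retnlg, summed to 146802 to 147323 units in shikonin-treated skin at 4 h, against 24387 to 25757 in acetone-treated skin. At 24 h they summed to 143776 to 143819 in shikonin-treated skin, against 13777 to 15169 in acetone-treated skin. Of the 9, 8 rose at 4 h and 9 at 24 h, with Mmp8 at the floor in acetone at 24 h. Macrophages export sterol through Abca1 and Abcg1, and of 12 macrophage markers 2 were higher and 6 lower at 4 h, 7 higher and 1 lower at 24 h, with sums, without the saturated Cd14, of 141595 to 142081 in shikonin-treated skin at 24 h, against 87870 to 88457 in acetone-treated skin, where Cd163, Msr1 and Fcgr1 were at the floor. Between the acetone groups 7 of the 9 neutrophil and 8 of the 12 macrophage markers were lower at 24 h than at 4 h, beside 14.2% of all probes. The part of these cell types in the results on sterol genes was not tested.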

How the data were processed

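Skin RNA was labelled with Cy5 and hybridised to Mouse OneArray chips, and the arrays were scanned with GenePix, per the labels. The deposited values are intensity on a linear scale. The authors had normalized them and left 16069 of 29922 probes blank on all 8 arrays, with a background correction, normalization and blank filter each not given in the sources used here. Equal medians leave overall shifts in RNA amount unseen. Of the 13853 probes with values, 11550 carried a gene symbol in the platform annotation, of which 9712 were current, 1813 were updated through RefSeq and 25 were kept.

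Intensities were floored at the 5th percentile (203.4), taken to log2 and fitted over all 4 groups with limma 3.58.1 (lmFit, eBayes with an intensity trend) in R 4.3.3, with contrasts for each time, the difference of the effects and acetone 24 h over acetone 4 h. P-values were adjusted (Benjamini-Hochberg) over all 13853 probes, with a threshold of 0.05. The residual degrees of freedom were 4. The steps were tested on simulated data. Every measured gene is named, and values on each array are given for Idi2, Idi1 and the 3 highest and 3 lowest called members of each shikonin contrast, with others added where a result turns on them. The members and all lists were chosen with earlier results of these data known. The alternatives were other floors, normalizations, centring, filters, weights, probe rules, thresholds, a replicate block, the acetone arrays of the other time and leaving out each array. Chromosome 18 sequences are not printed. With 2 arrays a group, the number of arrays limits the precision. The microRNA arrays of the study were not analysed here.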

Additional observations from a re-analysis of the deposited data

Results flagged for a closer look

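The shikonin effect was compared between 24 h and 4 h (limma, adjusted p under 0.05 for the difference itself, 24 h minus 4 h on the log2 scale). The effect differed for 18 of the 25 members other than Idi2, beside 22.2% lower and 21.1% higher over all probes. It was lower at 24 h for Lss (-2.46), Cyp51 (-1.96), Tm7sf2 (-1.76), Sc4mol (-1.73), Fdps (-1.52), Idi1 (-1.45), Sqle (-1.44), Mvk (-1.42), Dhcr7 (-1.36), Insig2 (-1.23), Mvd (-1.20), Scap (-1.10) and Stard4 (-0.93). It was higher at 24 h for Abcg1 (2.48), Nr1h3 (1.49), Abca1 (1.34), Ggps1 (1.10) and Npc1 (0.64). These are values of the brighter probes. The dimmer probes of Lss, Cyp51, Abcg1 and Npc1 passed in the same direction, and that of Stard4 did not pass (-0.39). Nsdhl and Insig1 were split, with 0.46 and -0.04 on the brighter probes, which did not pass. Their dimmer probes were lower (-1.41 and -1.75, adjusted p = 0.00208 and 0.000272, limma). With the floor at the 25th percentile the differences of Tm7sf2, Mvd, Ggps1, Abca1 and Npc1 no longer passed. For Idi2 the effects ran in opposite directions on every array (difference -8.57), and that difference was not tested. Mvk, Tm7sf2 and Abcg1 passed in opposite directions at the 2 times, Mvk and Tm7sf2 higher at 4 h and lower at 24 h, Abcg1 lower at 4 h and higher at 24 h. These reversals depend on the acetone arrays used. Against those of the other time, Mvk, Tm7sf2 and Abcg1 were at -0.0018, -0.10 and -0.41 at 4 h. At 24 h Mvk was then at 0.31, Tm7sf2 at -0.11 and Abcg1 at -0.02. With 2 arrays a group, no array could be examined for lying apart from its group.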

How the results depend on the processing

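The counts of members called at 24 h changed least. Without each array in turn, 4 to 4 of the 25 members rose and 12 to 13 fell at 24 h, 2 to 4 rose and 4 to 8 fell at 4 h, 3 to 5 had a higher and 13 to 14 a lower effect at 24 h, and in acetone 2 to 9 were higher and 2 to 5 lower at 24 h. With the floor at the 25th percentile, 3 members had a higher effect at 24 h and 5 were higher in acetone at 24 h. When a gene's probes were averaged, 5 rose at 4 h. Against the other time's acetone arrays, 11 fell at 4 h, a count with no share over all probes at hand to set beside it. With the 2-fold rule in both numbered pairs, 0 rose and 2 fell at 4 h, 1 rose at 24 h, and 0 were higher and 1 lower in acetone at 24 h. At an adjusted p under 0.01, 4 fell at 4 h, 3 had a higher effect at 24 h and 4 were higher in acetone at 24 h.

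Against the other time's acetone arrays, directions turned at 4 h for Mvk (-0.0018), Tm7sf2 (-0.10), Lss (-0.37) and Cyp51 (-0.35), and at 24 h for Mvk (0.31) and Abcg1 (-0.023). With the mean of both probes Lss was at -0.21 at 4 h. Leaving out each array in turn, Idi1 ran between -0.28 and 0.10 at 4 h (0.10 without shikonin 4 h replicate 2), Abca1 between -0.38 and 0.23 at 24 h (0.23 without shikonin 24 h replicate 1, 0.16 without acetone 24 h replicate 2), the difference of effects of Soat1 between -0.035 and 0.37, and Nr1h3 in acetone between -0.34 and 0.10 (both turned without acetone 24 h replicate 1). The cause was not tested. Deviations of same-numbered arrays had correlations of -0.212 to 0.213 between groups. Between shikonin and acetone the correlation was -0.037 at 4 h and 0.206 at 24 h. A fit with the replicate number as a block gave 4 higher and 6 lower at 4 h and 4 and 13 at 24 h. It gave 5 and 14 for the difference of effects and 10 and 4 in acetone. Members among the dimmest 25% of probes have no value under the filter on dim probes. Depth has no counterpart here, and values at the floor have no order.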
